A study of Mus musculus with 3 samples.

Results

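The genes described here encode the antigen-presenting molecules of the mouse major histocompatibility complex (MHC) and the proteins that load or switch on these molecules. The 10 members were taken by symbol from the 32285 genes of the series. Of these, 6 belong to class II (H2-Aa, H2-Ab1, H2-Eb1, Cd74, Ciita and H2-DMa) and 4 to class I (H2-K1, H2-D1, B2m and Tap1), and all 10 were found in the 3 deposited matrices. Expression was measured by Visium spatial transcriptomics, in which a heart section lies on a grid of barcoded spots and each captured polyadenylated transcript is counted once through its unique molecular identifier (UMI).

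The series holds 1 section from each of 3 conditions in 8-week-old C57BL/6 mice. All 3 mice were given 7 days of gavage before surgery. The sham mouse received vehicle, and the needle was passed with no ligation. The ischemia-reperfusion (I/R) mouse received vehicle and had the left anterior descending coronary artery tied for 30 min, with tissue taken after 24 h of reperfusion. The SBP mouse went through the same ligation after gavage with MUSKARDIA solution, the Shexiang Baoxin Pill of traditional Chinese medicine. With 1 section per condition there was no replicate, so no difference below was tested, and each 95% interval covers counting error only.

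After spots with fewer than 200 genes were left out, 2234 spots remained in the sham section, 2082 in the I/R section and 1960 in the SBP section. The sections held 25118258, 30238530 and 21631280 UMIs in that order. Mitochondrial genes took 48.6%, 44.3% and 46.3% of them. Cardiomyocyte markers (Tnnt2, Ttn, Pln and Myh6) were abundant in each section, at 13384, 10583 and 12440 CPM in sum (UMIs per 1000000 UMIs of the section). Any pair of sections shared 1207 to 1568 spot barcodes, which come from the fixed barcode set of the slide.

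MHC class I molecules consist of a heavy chain (H2-K1 or H2-D1) bound to beta-2 microglobulin (B2m), and they show peptides from inside the cell to CD8 T cells on nearly every nucleated cell type. Class II molecules pair an alpha and a beta chain, show peptides from engulfed material to CD4 T cells, and are made mostly by macrophages, dendritic cells and B cells. In the heart, resident macrophages include a subset rich in class II, and recruited monocytes can acquire it after injury. C57BL/6 mice carry the b haplotype of the MHC, whose H2-E alpha gene is not transcribed, so that H2-Eb1 codes for a beta chain without its usual partner there. H2-Ea was not analysed here.

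In the GRCm38 build with GENCODE M21 genes, 7 of the members lie in the MHC on chromosome 17. On the plus strand are H2-DMa (17:34119541-34139101), Tap1 (17:34187553-34197225), H2-Ab1 (17:34257689-34269419), H2-Eb1 (17:34305867-34316674) and H2-D1 (17:35262730-35267499). On the minus strand are H2-K1 (17:33996017-34000347) and H2-Aa (17:34282744-34287823). B2m (2:122147686-122153083) and Ciita (16:10480059-10528418), both on the plus strand, lie outside the complex, as does Cd74. MHC genes are similar in sequence, so the 3′ ends that the assay reads were compared. Of the 410 windows of 91 bases in the last 500 bases of each member's longest coding transcript, 0 were found in a transcript of another gene for any of the 10 members.

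Class I and class II genes share a promoter module, made of an X1 box bound by the RFX complex, an X2 box bound by CREB-family factors and a Y box bound by NF-Y, on which the coactivators CIITA (class II) and NLRC5 (class I) assemble. Promoters were found in the RefSeq table for 7 members and not for H2-Ab1, Cd74 and Ciita. For H2-DMa and H2-K1, which had 2 entries each, only the first was read. The 180 bases before the RefSeq start of 4 of the 7 are shown because they set both classes side by side. They are taken from GRCm38.p6 and read 5′ to 3′ on the strand of the gene, H2-Aa from chr17:34287824-34288003 (minus), H2-Eb1 from chr17:34305687-34305866 (plus), H2-K1 from chr17:34000348-34000527 (minus) and B2m from chr2:122147507-122147686 (plus). Capitals mark ATTGG or its reverse complement CCAAT (Y box) and TGACG (X2 box, which in H2-Aa overlaps its match on the minus strand). Of the 4 shown, only H2-Eb1 holds the 11 letters of the X1 box and only H2-K1 the kB site of class I genes. Of the same 4, only B2m holds the interferon-stimulated response element, ISRE. These letters are in capitals too.
H2-Aa: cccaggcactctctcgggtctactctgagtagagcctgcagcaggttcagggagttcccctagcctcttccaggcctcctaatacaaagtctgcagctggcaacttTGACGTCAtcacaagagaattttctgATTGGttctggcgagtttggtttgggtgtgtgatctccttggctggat
H2-Eb1: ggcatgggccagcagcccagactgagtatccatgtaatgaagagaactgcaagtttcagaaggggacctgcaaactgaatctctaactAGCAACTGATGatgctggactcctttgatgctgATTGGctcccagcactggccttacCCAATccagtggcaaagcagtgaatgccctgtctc
H2-K1: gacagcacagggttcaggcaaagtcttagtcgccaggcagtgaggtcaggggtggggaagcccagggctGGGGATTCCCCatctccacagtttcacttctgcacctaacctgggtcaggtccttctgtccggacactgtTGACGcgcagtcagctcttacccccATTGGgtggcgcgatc
B2m: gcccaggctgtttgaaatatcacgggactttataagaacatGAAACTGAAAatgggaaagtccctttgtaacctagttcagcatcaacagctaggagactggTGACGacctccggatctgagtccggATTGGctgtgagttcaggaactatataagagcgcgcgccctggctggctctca

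In these letters TGACG stood 20 bases before ATTGG in H2-K1, B2m and H2-D1 and 21 bases before it in H2-Aa. The pair thus stood at that spacing in 4 of the 7 promoters read. H2-Eb1 held the X1 letters and both orientations of the Y box. H2-D1, whose letters are not shown, also held both orientations, and it held the kB letters as H2-K1 did. Tap1 held TGACG without ATTGG. The first entry of H2-DMa held none of the letters searched, and its other entry was not read. On both strands of 32851 promoter windows of the same length, ATTGG was found in 27.5%, TGACG in 14.8%, the X1 letters in 0.149%, the kB letters in 0.0274% and the ISRE letters in 0.499%. The pair at 20 or 21 bases was found in 0.134%. The letters and the spacing were chosen after these promoters had been read and the H2-Eb1 window overlaps the first exon of the antisense gene Gm20513. A match is a description of the letters and not a bound site.

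The members were read in each whole section first. Class II transcripts were highest in the I/R section and about equal in the sham and SBP sections, whereas class I transcripts were higher in both ligated hearts than in the sham heart. The 6 class II members together had 253 CPM in the sham section, 421 CPM in the I/R section and 237 CPM in the SBP section. The 4 class I members together had 513, 715 and 641 CPM in the same order. In sums over spots that hold several cells, more cells of a type and more RNA per cell cannot be told apart.

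Among the class II chains, H2-Ab1, the beta chain of H2-A, was at 58.3 CPM in the sham section, 101 CPM in the I/R section and 57.0 CPM in the SBP section. H2-Aa, its alpha partner, was at 45.1, 77.3 and 40.8 CPM. H2-Eb1 was at 32.9, 55.3 and 32.0 CPM. All 3 chains thus stood highest in the I/R section, and the sham and SBP values lay close together.

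Cd74, the invariant chain that blocks the peptide groove until class II reaches the endosome, was the most abundant class II member, at 110.5, 173 and 101 CPM. H2-DMa, a chain of the H2-DM molecule that exchanges the invariant chain fragment for peptide, was at 5.26, 12.5 and 5.64 CPM. Ciita, the coactivator that class II transcription depends on, was near the limit of detection with 21, 67 and 22 UMIs, or 0.836, 2.22 and 1.02 CPM. The order Cd74, H2-Ab1, H2-Aa, H2-Eb1, H2-DMa, Ciita held in each section, and no 2 neighbours in it had overlapping counting intervals. Levels of different genes are compared per UMI, without division by length, since each UMI marks 1 captured transcript end.

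Among class I members, B2m was the most abundant of all 10 genes at 239.8, 336 and 271 CPM. H2-K1 was at 158, 197 and 217 CPM, and it was the only member highest in the SBP section. H2-D1 was at 109, 172 and 144 CPM. Tap1, a subunit of the transporter that carries peptides into the endoplasmic reticulum for class I, was at 6.53, 10.9 and 9.34 CPM. The 3 abundant class I genes kept the order B2m, H2-K1, H2-D1 in each section, again without overlap of neighbouring intervals.

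**Figure D1:**
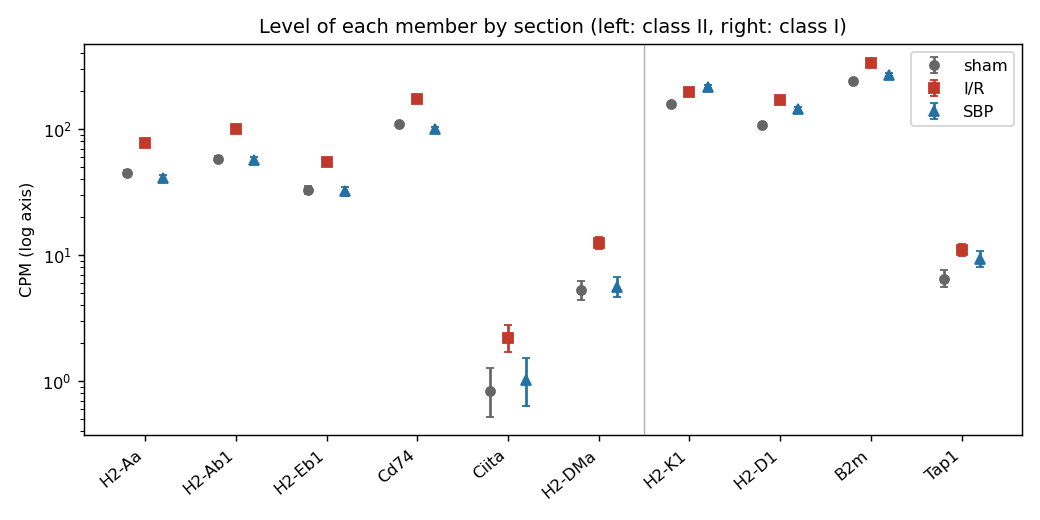
Level of the 10 members in each section in CPM (log axis), with bars for the 95% counting interval and 1 section per condition. Each class II gene has its highest point in the I/R section, for example Cd74 at 173 CPM against 110.5 and 101 CPM, whereas H2-K1 is highest in the SBP section at 217 CPM.

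Relative to sham, the I/R section was higher in all 10 members. The log2 ratio of the class II sum was 0.73 (95% interval 0.69 to 0.78) and that of the class I sum 0.48 (0.45 to 0.51). Over the 12231 genes that reached 50 UMIs in the pair of sections, the median log2 ratio was 0.24, so the sums stood 0.49 and 0.24 above the typical gene. Past 2-fold were 2 of 6 class II members, Ciita at 1.41 (0.68 to 2.19) and H2-DMa at 1.25 (0.96 to 1.55), and 0 of 4 class I members, beside 8.38% of all genes. The 3 chains lay together at 0.75 to 0.79 and Cd74 at 0.65. At 1.5-fold, 6 of 6 class II members were higher and 2 of 4 class I members, H2-D1 at 0.66 and Tap1 at 0.75, beside 23.2% of all genes. The class I members were thus less uniform, with H2-K1 only 0.31 higher (0.26 to 0.37).

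Relative to I/R, the SBP section was lower in class II and close in class I. This comparison shares the I/R section with the one above, so the I/R counts enter both with opposite sign. The class II sum had a log2 ratio of -0.83 (-0.87 to -0.78) and the class I sum one of -0.16 (-0.19 to -0.13), against a median of -0.17 over all genes, and the class I value turned to 0.0050 with median-of-ratios size factors. Relative to that median, class II was lower by a log2 value of -0.66 and class I stood at 0.01. The class II members ranged from -1.15 (H2-DMa) to -0.78 (Cd74). H2-DMa and Ciita (-1.12, -1.89 to -0.41) were past 2-fold, 2 of 6 beside 4.53% of all genes, and 6 of 6 were past 1.5-fold beside 13.8%. Of class I members 0 of 4 were lower by either fold, and H2-K1 pointed the other way at 0.14 (0.09 to 0.20).

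Between SBP and sham, the classes differed in direction. The class II sum had a log2 ratio of -0.09 (-0.15 to -0.04) and the class I sum one of 0.32 (0.29 to 0.36), with a median of 0.08 over all genes. With each spot given equal weight the class II value turned to 0.025, so its direction depended on how deep spots were weighted. The intervals of H2-Ab1 (-0.14 to 0.08), H2-Eb1 (-0.19 to 0.11) and H2-DMa (-0.27 to 0.47) held 0, while H2-Aa was at -0.14 (-0.27 to -0.02) and Cd74 at -0.14 (-0.22 to -0.05). All 4 class I members were higher in the SBP section, Tap1 by 0.52, H2-K1 by 0.45, H2-D1 by 0.41 and B2m by 0.18. Of the 9 members with at least 50 UMIs, 0 were past 2-fold, where 1.48% of all genes were higher and 0.731% lower.

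**Figure D2:**
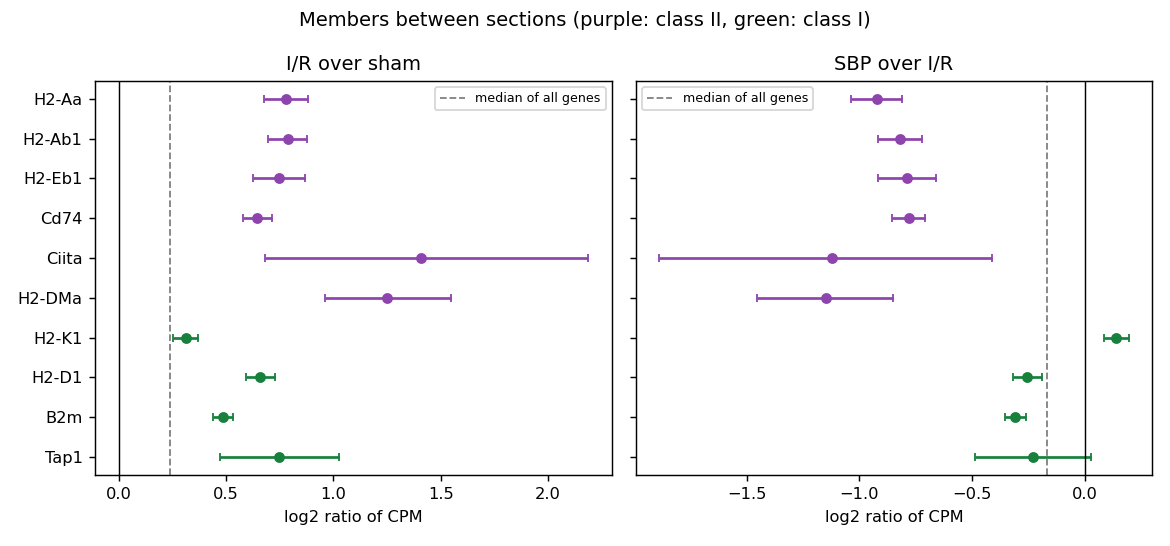
Log2 ratio of CPM for the 10 members, I/R over sham (left) and SBP over I/R (right), with bars for the 95% counting interval, a solid line at 0 and a dashed line at the median of all genes (0.24 and -0.17). The 6 class II members (purple) lie right of the dashed line on the left and left of it on the right, from 0.65 to 1.41 and from -1.15 to -0.78, while H2-K1 lies right of 0 in both, at 0.31 and 0.14.

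The other genes of the class II pathway were read from a list of 13 symbols, of which 11 were in the matrices and 8 had at least 50 UMIs. In the I/R section 4 of these 8 were more than 2-fold above sham, beside 8.38% of all genes. They were the lysosomal thiol reductase Ifi30 (log2 ratio 1.68, 1.51 to 1.86), the invariant chain protease cathepsin S (Ctss, 1.52, 1.41 to 1.63), the asparaginyl endopeptidase Lgmn (1.26, 1.19 to 1.34) and the second H2-DM chain H2-DMb1 (1.04, 0.76 to 1.32). In the SBP section Ifi30 (-1.20), Ctss (-1.25) and H2-DMb2 (-1.74, from 21 against 98 UMIs) were more than 2-fold below I/R, beside 4.53% of all genes. The median of the list was 0.89 between I/R and sham, -0.80 between SBP and I/R and 0.29 between SBP and sham, all as log2 ratios. Ifi30, Ctss and Lgmn act in lysosomes of phagocytes beyond class II loading. The subunits of the RFX complex had smaller values, with Rfx5 at -0.22 (-0.67 to 0.24), Rfxank at -0.04 (-0.27 to 0.19) and Rfxap at 0.39 (0.13 to 0.66) for I/R over sham. H2-Oa, H2-Ob and H2-Eb2 had under 50 UMIs.

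Of 24 other class I pathway symbols, 23 were in the matrices and 20 had at least 50 UMIs. Relative to sham, 1 of 20 was more than 2-fold higher in the I/R section, the nonclassical gene H2-Q10, which rests on 16 and 132 UMIs (2.78, 2.02 to 3.63), beside 8.38% of all genes. The median of this list was 0.46 between I/R and sham, -0.05 between SBP and I/R and 0.42 between SBP and sham. In the SBP section 4 of 20 were more than 2-fold above sham, namely H2-Q6 (1.61, 1.16 to 2.07), H2-Q7, H2-Q10 (1.97, 1.14 to 2.87) and the class I coactivator Nlrc5 (1.03, 0.34 to 1.74), beside 1.48% of all genes. H2-Q6 had 58 UMIs in the sham section, 130 in the I/R section and 152 in the SBP section, and H2-Q7 had 117, 243 and 285, or 4.66, 8.04 and 13.2 CPM. H2-Q6 is uncertain because 10.5% of its 3′ windows occur in other genes, H2-Q4 among them, whereas H2-Q7 shared 0. The immunoproteasome subunit Psmb8 was higher by 0.91 in the I/R section and by 0.78 in the SBP section, and tapasin (Tapbp), which holds class I next to the transporter, was at -0.35 and -0.16.

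Genes that interferon induces were examined because interferon gamma is the classical inducer of both classes. Of 13 listed genes, 12 had at least 50 UMIs. Their median log2 ratio was 0.09 between I/R and sham and 0.04 between SBP and I/R, beside 0.24 and -0.17 over all genes. Of these 12, Cxcl10 alone, with 10 and 48 UMIs, was more than 2-fold higher in the I/R section than in sham, beside 8.38% of all genes. Cxcl9 was the lowest of the list at -0.50 (-1.04 to 0.03). Irf1, a transcription factor that interferon induces, was at 0.28 (0.04 to 0.52). Ifng itself had 1 UMI in the sham section, 0 in the I/R section and 1 in the SBP section. The upper end of its exact 95% counting interval in the I/R section was 0.122 CPM.

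Markers of immune cells, among them those that mostly make class II, were counted in the same sections. Macrophage markers (C1qa, C1qb, C1qc, Adgre1, Csf1r and Ms4a7) summed to 401, 493 and 380.1 CPM, which gives log2 ratios of 0.30 (I/R to sham) and -0.38 (SBP to I/R), with 0 of 6 more than 2-fold higher in the first (8.38% of all genes were) and 1 of 6 more than 2-fold lower in the second (4.53% were). Monocyte markers differed more, at 34.1, 104 and 52.5 CPM (1.61 and -0.99), with 4 of 5 more than 2-fold higher in I/R than in sham, beside the same 8.38%. Neutrophil markers were at 27.2, 236 and 115 CPM (3.12 and -1.03), with 4 of 4 more than 2-fold higher in I/R than in sham. Dendritic cell markers had 265, 403 and 183 UMIs in sum, and 4 of 6 of them (Flt3, Xcr1, Clec9a and Ccr7) had under 50. Most of the dendritic cell UMIs were of Zbtb46, which was at 8.28 CPM in the sham section and 7.90 CPM in the I/R section. The sum thus rested mostly on that gene and is no measure of dendritic cell number. The whole dendritic cell sum was at 10.6 and 13.3 CPM there, so the remaining markers together were higher in the I/R section. B cell markers had 49, 83 and 39 UMIs (1.95, 2.74 and 1.80 CPM) and T cell markers 13, 28 and 24 (0.518, 0.926 and 1.11 CPM). The macrophage, monocyte, neutrophil, dendritic and B cell sums were highest in the I/R section, as class II was. The T cell sum was highest in the SBP section. The interval of the B cell sum held 0 for I/R over sham (-0.03 to 1.03). That of the T cell sum held 0 for SBP over I/R (-0.59 to 1.10). The median gene was at 0.24 (I/R to sham) and -0.17 (SBP to I/R), not far from the macrophage sum in the first. The part of these cell types in the class II difference was not tested.

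The balance of the classes was read within each section. There were 0.493 class II UMIs per class I UMI in the sham section, 0.588 in the I/R section and 0.370 in the SBP section. On the log2 scale these are -1.02 (-1.06 to -0.98), -0.77 (-0.80 to -0.73) and -1.44 (-1.48 to -1.39), with no overlap of the intervals. A class II against class I ratio within a section does not depend on the scaling of that section. The I/R section therefore had the highest class II share and the SBP section the lowest.

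Spots were compared at equal depth, by drawing 6500 UMIs from each without replacement. The 132, 202 and 213 spots with fewer were set aside here and in the spot groups below. Per UMI they held more class II than the deeper spots in each section, and most in the I/R section. The thinned and spot-group values therefore leave out these class II-rich spots. At this depth class II was patchy and class I nearly everywhere. A class II UMI was present in 55.8% of sham spots (95% binomial interval 53.7% to 57.9%), 65.1% of I/R spots (62.9% to 67.3%) and 55.4% of SBP spots (53.0% to 57.8%). A class I UMI was present in 93.1%, 95.2% and 94.7%. Without thinning the shares were 67.6%, 84.9% and 68.9% for class II and 97.2%, 99.5% and 98.7% for class I. Spots are not cells and not replicates, and their intervals cover counting error only.

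The unevenness was measured as the variance beyond Poisson counting divided by the squared mean (excess CV²). It was 3.31 for class II in the sham section, 3.06 in the I/R section and 2.93 in the SBP section, against 0.263, 0.581 and 0.291 for class I. The 5% of spots with the most class II UMIs held 38.1%, 37.4% and 37.4% of them, and those with the most class I UMIs held 16.1%, 19.1% and 15.8%. The fullest spot held 48, 63 and 32 class II UMIs. Without thinning the excess CV² was 5.57, 2.84 and 3.52 for class II and 0.553, 0.602 and 0.470 for class I, so the closeness of the 3 class II values depended on the thinning.

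The members were then placed one by one. Among the genes with at least 200 thinned UMIs (4381, 4678 and 3939 in the sham, I/R and SBP sections), ordered from the most uneven, H2-Ab1 took places 30, 67 and 40. H2-Aa took places 47, 93 and 41, H2-Eb1 places 42, 69 and 42, and Cd74 places 41, 109 and 48. H2-K1 took places 2784, 1204 and 1799 in the same order, B2m places 2059, 1449 and 1806, and H2-D1 places 1406, 1147 and 1246. The 4 abundant class II genes were therefore among the most unevenly spread genes of each section, and the 3 abundant class I genes took places from 1147 to 2784. Ciita, H2-DMa and Tap1 had too few thinned UMIs to be placed.

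**Figure D3:**
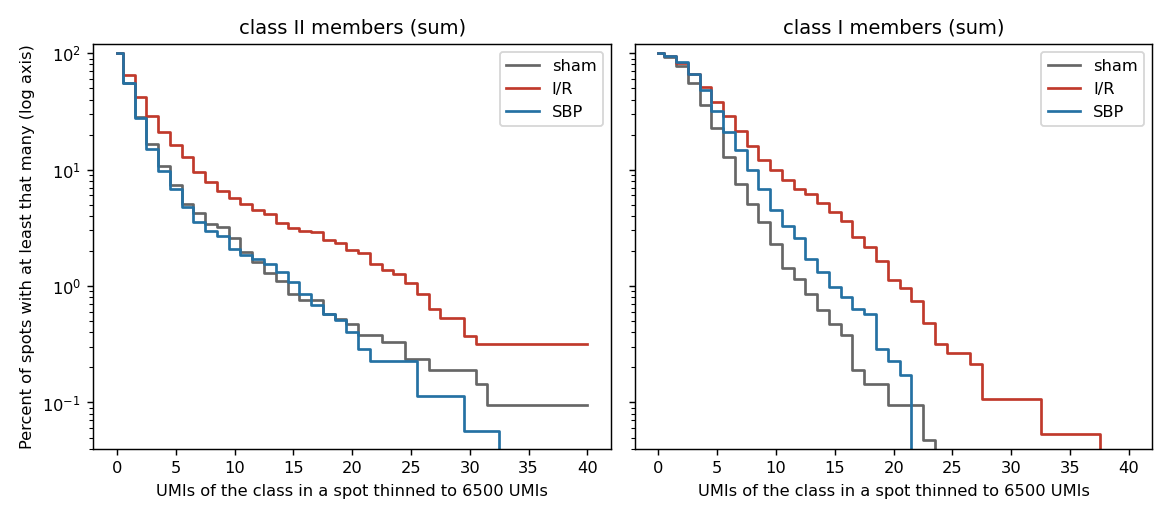
Percent of spots (log axis) that hold at least the number of class II (left) or class I (right) UMIs on the x axis, after thinning to 6500 UMIs, with 1 line per section and the last step holding 40 or more. Class II is at 0 in 929 of 2102 sham, 656 of 1880 I/R and 779 of 1747 SBP spots and has a long tail, up to 63 UMIs in the I/R section, whereas few spots lack class I.

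Across spots, members of the same class went together to different degrees. H2-Aa and H2-Ab1, which form 1 molecule, had a Pearson r of 0.36 over 2102 sham spots, 0.50 over 1880 I/R spots and 0.36 over 1747 SBP spots. H2-K1 and H2-D1 had 0.09, 0.32 and 0.18. The class II sum and the class I sum had 0.21, 0.46 and 0.28. These are descriptions, since spots of a section share 1 library, were set to 1 depth and hold sparse counts.

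The genes most like each class across spots, among those with at least 200 thinned UMIs, were ordered by r of log2(UMIs + 1). For class II they were Spp1, Actb, Lgals3, Tmsb4x and Ccl2 in the sham section (r from 0.30 to 0.34). In the I/R section they were Actb, Lyz2, Tmsb4x, Tgfbi and Spp1 (0.57 to 0.61), and in the SBP section Actb, Tmsb4x, Lyz2, Fn1 and Spp1 (0.32 to 0.34). For class I they were Actb, Tmsb4x, Rplp1, Ftl1 and Vim in the sham section, Actb, Ftl1, Lyz2, Actg1 and Ctsb in the I/R section and Actb, Eef1a1, Tmsb4x, Vim and Actg1 in the SBP section. Actb, which encodes beta-actin and is scarce in cardiomyocytes next to other cell types, was in the first 2 places for both classes in all 3 sections. The cardiomyocyte marker sum had r of -0.29, -0.57 and -0.27 with class II and -0.31, -0.54 and -0.31 with class I.

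Injury was marked by the sum of a list of 9 genes (8 of them Spp1, Timp1, Tgfbi, Ccn2, Tnc, Thbs1, Lgals3 and Hmox1), of which Spp1, Lgals3 and Tgfbi are also made by macrophages. A spot was called injury-list-high at 6 or more UMIs of the list, the lowest threshold that at most 5% of sham spots reached. These were 104 of 2102 sham spots, 644 of 1880 I/R spots and 280 of 1747 SBP spots. The sham share was thus fixed by the rule. Both classes were higher in these spots in each section, with the larger ratio for class II. In the injury-list-high spots class II was at 1021 CPM in the sham section, 802 CPM in the I/R section and 527 CPM in the SBP section. In the other spots it was at 201, 178 and 166 CPM. The log2 ratio was 2.34 (2.26 to 2.43), 2.17 (2.11 to 2.23) and 1.67 (1.58 to 1.75), where the median gene was at 0.58, 0.78 and 0.44. Class I was at 1073, 1086 and 951 CPM inside and 478, 485 and 551 CPM outside, a log2 ratio of 1.17, 1.16 and 0.79.

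Single members followed their class. In the I/R section, 6 of 6 class II members were more than 2-fold higher in injury-list-high spots, from 2.05 (H2-Aa) to 2.80 (Ciita), and 4 of 4 class I members were, from 1.12 (H2-K1) to 1.22 (H2-D1), beside 37.4% of all genes. In the sham section 5 of 5 class II members with at least 50 UMIs and 4 of 4 class I members were, beside 26.7%, with H2-Ab1 at 2.58 and Tap1 at 2.21. In the SBP section 5 of 5 class II members and 1 of 4 class I members, Tap1 at 1.24, were, beside 15.5%. Because so many genes passed 2-fold, the size of the ratio separates the classes better than the count.

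The shares given next leave out the shallow spots that were set aside for thinning, so they are not shares of a whole section. Among the remaining spots of the I/R section, injury-list-high spots held 69.9% of the class II UMIs and 34.0% of all UMIs. The corresponding pair was 23.8% and 5.80% in the sham section and 39.6% and 17.1% in the SBP section. For class I the share was 12.1%, 53.5% and 26.3%. Within these spots there were 0.951 class II UMIs per class I UMI in the sham section, 0.738 in the I/R section and 0.554 in the SBP section, and outside them 0.421, 0.367 and 0.301. The SBP section had the lowest class II share in both kinds of spot.

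**Figure D4:**
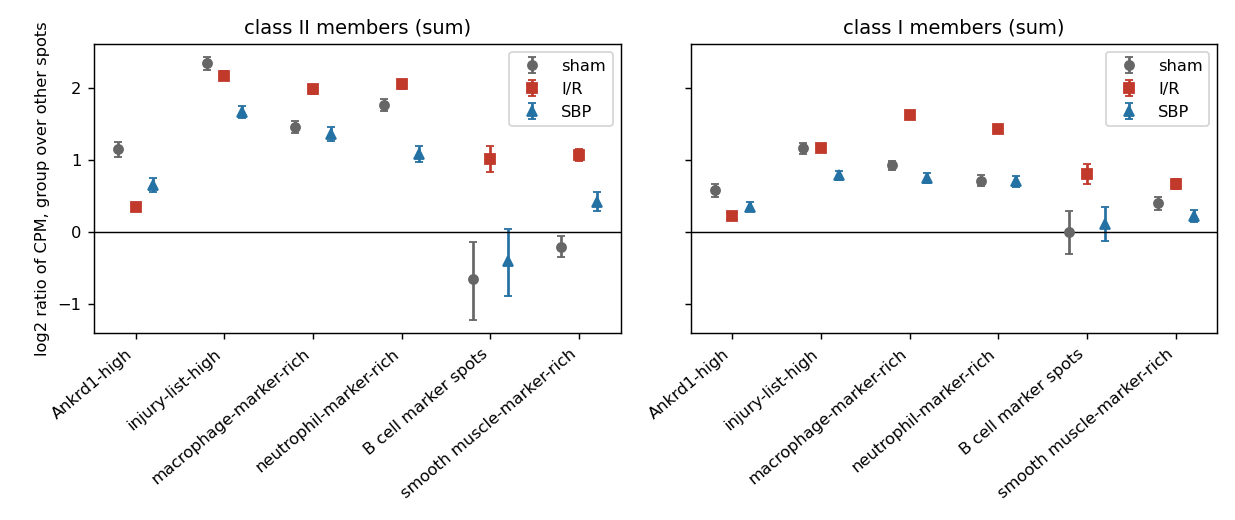
Log2 ratio of CPM in 6 groups of spots (x axis) over all other spots of the same section, for the class II (left) and class I (right) sums, with 1 point per section and bars for the 95% counting interval. Class II is the higher of the classes in injury-list-high spots (2.34, 2.17 and 1.67 against 1.17, 1.16 and 0.79), and its lead is smaller in Ankrd1-high spots (0.35 against 0.22 in the I/R section).

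Spots on the same side of this threshold were then compared between sections. The injury list holds Spp1, among the 5 genes most like class II in each section, and Lgals3, among the 5 in the sham section. The split was thus not independent of class II, which limits what the values below can show. By this split class II was not higher in I/R than in sham on either side, unlike in the split by Ankrd1 below. Within injury-list-high spots class II was lower in the I/R section than in the sham section, at -0.35 (-0.43 to -0.27). Within the other spots it was at -0.18 (-0.24 to -0.11). Over whole sections it was 0.73 higher, but that value includes the shallow spots set aside here. The median gene was at 0.07 within injury-list-high spots and at -0.06 within the others. Class I was at 0.02 (-0.06 to 0.10) and 0.02 (-0.02 to 0.06). The macrophage marker sum was at -0.23 and -0.32, and the neutrophil marker sum at 1.54 and 0.84. The injury list itself was at 0.25 inside and 0.81 outside, so spots on the same side were not alike in its content. With the threshold at 16 UMIs, which at most 2% of sham spots reached, class II was at -0.77 inside and at 0.089 outside. The share of spots that were injury-list-high was 4.95% in the sham section, as set by the threshold rule, and 34.3% in the I/R section. H2-DMa differed from the other class II members, at 1.03 (0.32 to 1.83) within injury-list-high spots, from 17 and 244 UMIs.

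Between SBP and I/R, class II was lower by -0.61 (-0.68 to -0.53) within injury-list-high spots and by -0.10 (-0.17 to -0.03) in the others, with the median gene at -0.23 and 0.07. With the threshold at 16 UMIs the values were -0.057 and -0.25, so the place of the difference depended on where the line was drawn. Macrophage markers were at -0.49 and 0.17, and the injury list itself was at -0.78 inside, so these spots carried less of it in the SBP section. Class I was at -0.19 and 0.18. Outside injury-list-high spots H2-K1 was at 0.48 (0.40 to 0.55), from 134 CPM in the I/R section to 186 CPM in the SBP section, while B2m was at 0.02 (-0.04 to 0.09) and H2-D1 at 0.11 (0.03 to 0.20). H2-K1 thus had the largest SBP difference of the 4 class I members in spots with little of the injury list.

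Ordered in 5 steps of injury-list UMIs per spot (0, 1 to 2, 3 to 5, 6 to 15, and 16 or more), mean class II UMIs per thinned spot were 1.09, 1.13, 2.56, 3.22 and 11.4 in the sham section. In the I/R section they were 0.93, 1.10, 1.34, 2.72 and 7.80, and in the SBP section 0.88, 1.02, 1.54, 2.23 and 6.87. Class I went from 2.71 to 10.7, from 2.85 to 9.92 and from 3.13 to 8.93. Both classes were higher at each further step in each section, and in proportion class II spanned the wider range. The top step held 41 spots in the sham section, 365 in the I/R section and 67 in the SBP section. Its SD over spots was near the mean for class II, at 10.1, 8.36 and 7.13.

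**Figure D5:**
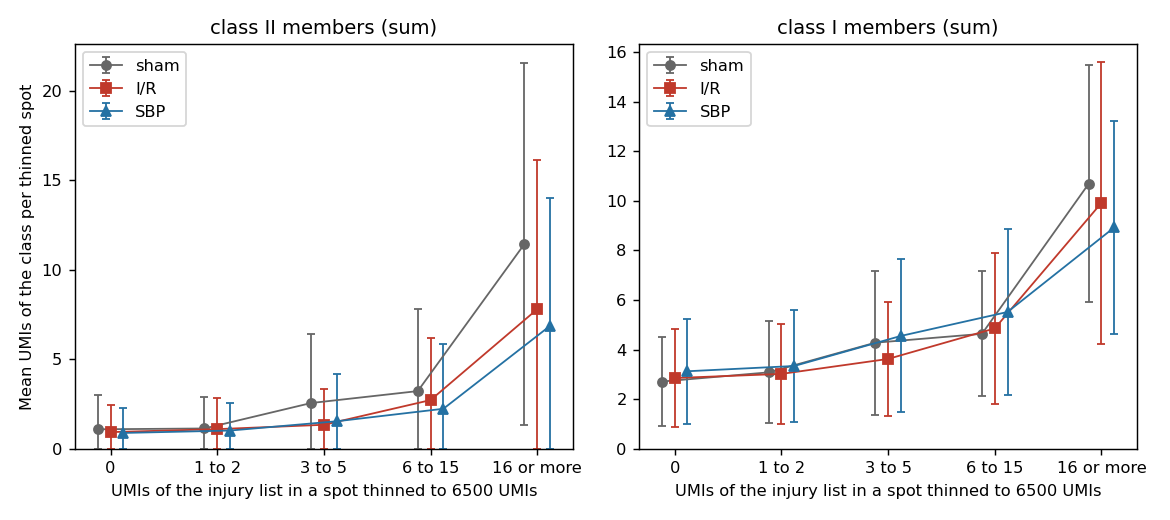
Mean class II (left) and class I (right) UMIs per thinned spot at 5 steps of injury-list UMIs, with bars of 1 SD over spots, stopped at 0, and 1 line per section. At 16 or more injury-list UMIs class II reaches 11.4 in the sham, 7.80 in the I/R and 6.87 in the SBP section, and at 0 it lies between 0.88 and 1.09.

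Ankrd1, a stress gene of cardiomyocytes, marked a group of spots that can overlap with the injury-list-high ones. The threshold of 19 UMIs was likewise the lowest that at most 5% of sham spots reached. Ankrd1 reached it in 4.33% of sham spots, 21.8% of I/R spots and 15.1% of SBP spots. Class II was higher in them by 1.15 (1.04 to 1.25), 0.35 (0.29 to 0.41) and 0.66 (0.56 to 0.75), and class I by 0.58, 0.22 and 0.35, with the median gene at 0.30, 0.25 and 0.22. In the I/R section 0 of 10 members were more than 2-fold higher there, beside 2.31% of all genes. Between I/R and sham, class II was at -0.13 (-0.24 to -0.02) within Ankrd1-high spots and at 0.66 (0.61 to 0.71) in the others. The median gene was at 0.10 and 0.16. Between SBP and I/R class II was at -0.50 and -0.81, with the median gene at -0.15 and -0.13. The injury list was itself higher in Ankrd1-high spots, by 1.51, 0.71 and 1.29, and its part was not tested. The value of 2.17 for class II in injury-list-high spots of the I/R section is not a like comparison. That list holds Tgfbi and Spp1, which were among the 5 genes most like class II there.

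Spots rich in macrophage markers, 10% of spots or fewer with the most of them, had more of both classes. Their thresholds were 6, 9 and 6 UMIs of the markers in the sham, I/R and SBP sections, so the groups are not alike in marker content. Class II was higher by 1.46 (1.38 to 1.55) in the sham section, 1.98 (1.92 to 2.04) in the I/R section and 1.36 (1.27 to 1.46) in the SBP section, and class I by 0.93, 1.62 and 0.75, with the median gene at 0.35, 0.78 and 0.29. In these spots the injury list was higher too, by 2.68, 2.68 and 1.80, and neutrophil markers by 1.95, 2.64 and 0.65, and their part was not tested. Neutrophil-rich spots had class II higher by 1.77, 2.05 and 1.09, with the median gene at 0.29, 0.90 and 0.33. The injury list was higher in the neutrophil-rich spots by 3.07, 2.77 and 2.23, and its part was not tested. Class II was also found in spots with 0 macrophage marker UMIs after thinning, which does not mean that the markers were absent. Of these spots 49.3%, 49.9% and 51.4% held a class II UMI, at a mean of 0.96, 1.08 and 0.97. At 8 or more macrophage marker UMIs the shares were 66.3%, 91.5% and 70%, at a mean of 4.83, 8.03 and 4.05. Spots with a B cell marker numbered 16, 28 and 18 and had class II at -0.65 (-1.22 to -0.13), 1.02 (0.84 to 1.19) and -0.40 (-0.89 to 0.05) relative to the others. The median gene was at -0.29, 0.37 and -0.0019. The injury list was at -2.11, 1.43 and 0.021 in these spots, and its part was not tested.

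The spots with the most class II, 5% or fewer in each section, were placed against these groups. Of 85 such spots in the I/R section, 95.3% were injury-list-high, beside 34.3% of all thinned spots, and 48.2% macrophage-rich, beside 8.99%. Of 89 in the sham section, 41.6% were injury-list-high, beside 4.95% of all thinned spots, and 38.2% macrophage-rich, beside 9.85%. Of 83 in the SBP section, 54.2% were injury-list-high, beside 16.03%, and 34.9% macrophage-rich, beside 9.90%. The base shares of injury-list-high spots differed between sections, so these percentages do not rank the sections by overlap. Conversely, 12.6% of the injury-list-high spots of the I/R section were among those richest in class II, 35.6% in the sham section and 16.1% in the SBP section. Of all spots 5% or fewer were. Of the spots richest in class II, 41.6% (sham), 45.9% (I/R) and 26.5% (SBP) were neutrophil-rich, beside 7.99%, 8.67% and 8.36% of all thinned spots. The spots richest in class I were injury-list-high in 41.9% (sham), 100% (I/R) and 65.4% (SBP), beside 4.95%, 34.3% and 16.03% of all thinned spots.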

How the data were processed

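The authors deposited, for each of 3 heart sections, a spot-by-gene matrix of raw UMI counts in 10x format, made per the labels and file headers with Space Ranger 1.3.0 on the mouse mm10 reference. The study's methods name another version and a human reference, whereas all 32285 genes are mouse genes, and 32158 of the IDs are in GENCODE M21. No sample pooling is stated.

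Spots with at least 200 genes were kept, with no doublet caller and no spot positions. Counts were summed per section and divided by the section's UMIs (CPM). Spot measures used spots thinned to 6500 UMIs (seed 11). Ratios carry exact conditional binomial intervals, CPM exact Poisson intervals and shares Clopper-Pearson intervals, all at 95%. With 1 section per condition no test was made, and "past 2-fold" or "past 1.5-fold" names a size among genes that reach 50 UMIs over the pair of sections. Depths were 21631280 to 30238530 UMIs per section.

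The members were named in full. Of the other lists, the genes with the largest and smallest ratio and those with a role the text needs were named, and the 5 genes most like each class by Pearson's r. Single values of 1 gene of the injury list and 1 of the interferon list are not reported here, although both genes stay in the sums and counts of their lists. Members and lists were chosen with earlier results of these data known. The scripts ran in Python 3.11.15 with scipy 1.17.1, numpy 2.4.6, matplotlib 3.10.9 and pandas 2.3.3 and were tested on simulated counts. Alternatives were other denominators (without mitochondrial genes, TMM, median-of-ratios), spot weights, filters, thinning depths and thresholds.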

Additional observations from a re-analysis of the deposited data

How the results depend on the processing

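No paired analysis was possible because sections number 1 per condition and carry no pairing, so no replicate could be left out either and no value was tested. For I/R over sham the log2 ratio of class II was 0.62 without mitochondrial genes, 0.51 with TMM factors, 0.50 with median-of-ratios size factors, 1.06 with equal weight for each spot, 0.84 without the 1% of spots fullest in the class and 0.78 as the median of the members. That of class I was 0.36, 0.26, 0.24 and 0.66 in the first 4 settings and 0.57 as the median of the members. For SBP over I/R class II was -0.78, -0.68, -0.67 and -1.03 in the first 4 settings and class I -0.10, -0.0098, 0.0050 and -0.24, with -0.24 as the median of the members. For SBP over sham class II was -0.16, -0.17, -0.17 and 0.025, then -0.031 without the fullest 1% of spots and -0.036 as the median, and class I was 0.26, 0.25, 0.25 and 0.42, with 0.43 as the median. The cause of these shifts was not tested.

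The log2 ratio of class II over class I without the fullest 1% of spots was -1.27 (sham), -0.90 (I/R) and -1.62 (SBP). With H2-Aa, H2-Ab1 and H2-Eb1 over H2-K1 and H2-D1 it was -0.97 (sham) and -0.66 (I/R), and with equal weight for each spot -0.65 (I/R). Members past the fold numbered 8 (I/R over sham) and 6 (SBP over I/R) at 1.5-fold, 1 and 1 with at least 200 UMIs, and 0 for SBP over I/R with median-of-ratios size factors. Thinned to 3000 UMIs, a class II UMI was present in 34.8%, 50% and 37.8% of sham, I/R and SBP spots and a class I UMI in 73.3%, 80.2% and 80.3%, with a class I excess CV² of 0.484 (SBP). Not thinned, the shares were 67.6%, 84.9% and 68.9% and 97.2%, 99.5% and 98.7%, and the excess CV² was 5.57 for class II in sham and 0.553 (sham) and 0.470 (SBP) for class I.

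In Ankrd1-high spots (sham, I/R, SBP) class II was at 1.61, 0.50 and 0.77 with the threshold at 10% of sham spots and 1.38, 0.18 and 0.39 at 2%, and class I at 0.68, 0.27 and 0.44 at 10% and 0.15 (I/R) and 0.28 (SBP) at 2%. With the injury list in place of Ankrd1 the values were 2.34, 2.17 and 1.67 for class II and 1.17, 1.16 and 0.79 for class I. Without mitochondrial genes they were 0.22 for class II (I/R) and 0.48, 0.087 and 0.27 for class I. In macrophage-rich spots taken as 5% of spots class II was at 1.87, 2.09 and 1.63 and class I at 1.19, 1.80 and 0.85.

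The injury thresholds for the comparisons within spot groups were chosen after seeing the data. At 10% of sham spots, I/R over sham within injury-list-high spots was -0.15 (class II) and 0.12 (class I). At 2% it was -0.77 and -0.17 inside and 0.089 and 0.12 outside, and SBP over I/R was -0.057 and -0.10 inside and -0.25 (class II) outside. Without mitochondrial genes SBP over I/R was -0.48 and -0.067 inside and 0.12 (class I) outside. Of 210 values of single members under alternatives, 206 kept their sign and 144 lay within the interval of the reported value. The 4 others were H2-Ab1 and H2-Eb1 for SBP over sham, at 0.14 and 0.02 with equal weight for each spot and at 0.04 and 0.03 without the fullest 1%. Depth limits Ciita, at 21 to 67 UMIs per section, and with 1 section per condition the difference between mice is unknown.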

Other observations

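Smooth muscle-rich spots (Acta2, Myh11 and Tagln, 10% of spots or fewer with the most of them) differed between sections in class II. Class II in these spots, relative to the others, was at a log2 ratio of -0.20 (-0.35 to -0.05) in the sham section, 1.07 (0.99 to 1.15) in the I/R section and 0.42 (0.29 to 0.55) in the SBP section. Class I was at 0.40, 0.66 and 0.23, and the median gene at 0.25, 0.53 and 0.20. The injury list was also higher in these spots, at 0.48, 1.31 and 0.74, and its part in the class II values was not tested. The thresholds were 5, 4 and 2 UMIs of the markers, so the groups are not alike in marker content.

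Neutrophil-rich spots held 0.885 class II UMIs per class I UMI in the sham section, 0.801 in the I/R section and 0.461 in the SBP section, against 0.427, 0.519 and 0.353 in the other spots. Their thresholds were 1, 6 and 2 UMIs of the markers.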
